A study of Mus musculus with 12 samples.

Results

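The response of the wild-type mouse lung to high tidal volume ventilation was read from 6 of the series' 12 arrays, 3 from spontaneously breathing mice (SB) and 3 from mice with ventilator-induced lung injury (VILI). It is described across 12309 genes, where the probe set of highest mean signal, among those that carry 1 gene symbol, stands for its gene. The animals of both groups were male C57BL/6 mice of 8 to 12 weeks, and total RNA of the lung was hybridised to Affymetrix expression arrays, 1 array per sample. The VILI mice were ventilated for 4 h at 65 breaths per min with an end-expiratory pressure of 0 cm H2O. The labels of the samples put each breath at 40 ml/kg, while the design text of the series says 30 ml/kg. The other 6 arrays come from nmMLCK-/- mice, which lack non-muscle myosin light chain kinase, under the same 2 conditions. A group on low tidal volumes was not part of the samples, so the effects of tidal volume, of mechanical ventilation and of the handling that goes with it cannot be told apart. The labels do not say whether the replicates of a group came from separate animals, so p-values measure the spread between these samples.

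Overdistension of the lung stretches alveolar epithelium, capillary endothelium and the matrix between them. Stretched cells are known to signal through calcium, mitogen-activated protein kinases (MAPKs) and NF-kappa-B, and these pathways end on transcription factors of the AP-1, CREB, SRF and Rel families. The same lungs hold multiciliated airway cells, whose programme depends on FOXJ1, and an endothelium whose quiescent state depends on KLF2 and is sensitive to flow.

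The 6 wild-type arrays correlated at 0.9867 to 0.9975 with each other over 45037 probe sets, which are not independent replicates. SB replicate 3 stood apart from the other 2 SB arrays on the second principal component, at 33.15 against -20.43 and -26.20. Its 23 neutrophil markers had a median log2 signal of 8.98, against 5.79 and 6.01 in SB replicates 1 and 2 and 8.45 to 9.18 after VILI. Its 15 B and plasma cell markers had a median of 8.66, against 6.20 to 6.98 in the other 5 arrays. Alveolar epithelial markers were near-equal across arrays: the 27 alveolar type 2 markers had medians of 13.47 to 13.60 under SB and 13.43 to 13.57 after VILI, and the 24 alveolar type 1 markers lay between 13.25 and 13.44 in all 6. The 18 cardiac and skeletal muscle markers had medians of 10.16 to 10.53 under SB and of 11.37, 9.11 and 8.68 in VILI replicates 1, 2 and 3. In bulk RNA, fewer cells of a type and less RNA per cell cannot be told apart.

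Of the 12309 genes, 1892 changed between VILI and SB in the fit over all 12 arrays (limma, adjusted p under 0.05), which is 15.4%. Of these, 780 were higher after VILI (6.34% of all genes tested) and 1112 were lower (9.03%). The VILI and SB arrays did not overlap for 4431 genes (36%), 1877 of the called genes among them. With the array medians set equal, 926 genes were higher and 839 lower, so that the share of calls that were higher was 52.5%, against 41.2% with the values as deposited. The count of calls was 933 without SB replicate 1 and 1118, 1136 and 1090 without VILI replicates 1, 2 and 3, and 762 genes were called in each of the 12 fits that left out 1 array. Differences below are VILI minus SB in log2 signal (n = 3 arrays in either group), each ± its standard error. That error is limma's moderated one, with the spread estimated over all 12 arrays, knockout included, and drawn towards that of other genes. It is not the spread of the 6 wild-type arrays alone. Lists are described by counts, to be read beside the shares of all genes, 6.34% higher and 9.03% lower. The median over all genes was -0.05. Where SB signals lie near the filter level of log2 3.056, as for Dio2, Fosl1, Ikzf4 and Il1r2, the size of a rise is less certain than its direction. Unless a loss is stated, each gene named as having risen or fallen was also called in each of those 12 fits.

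**Figure D1:**
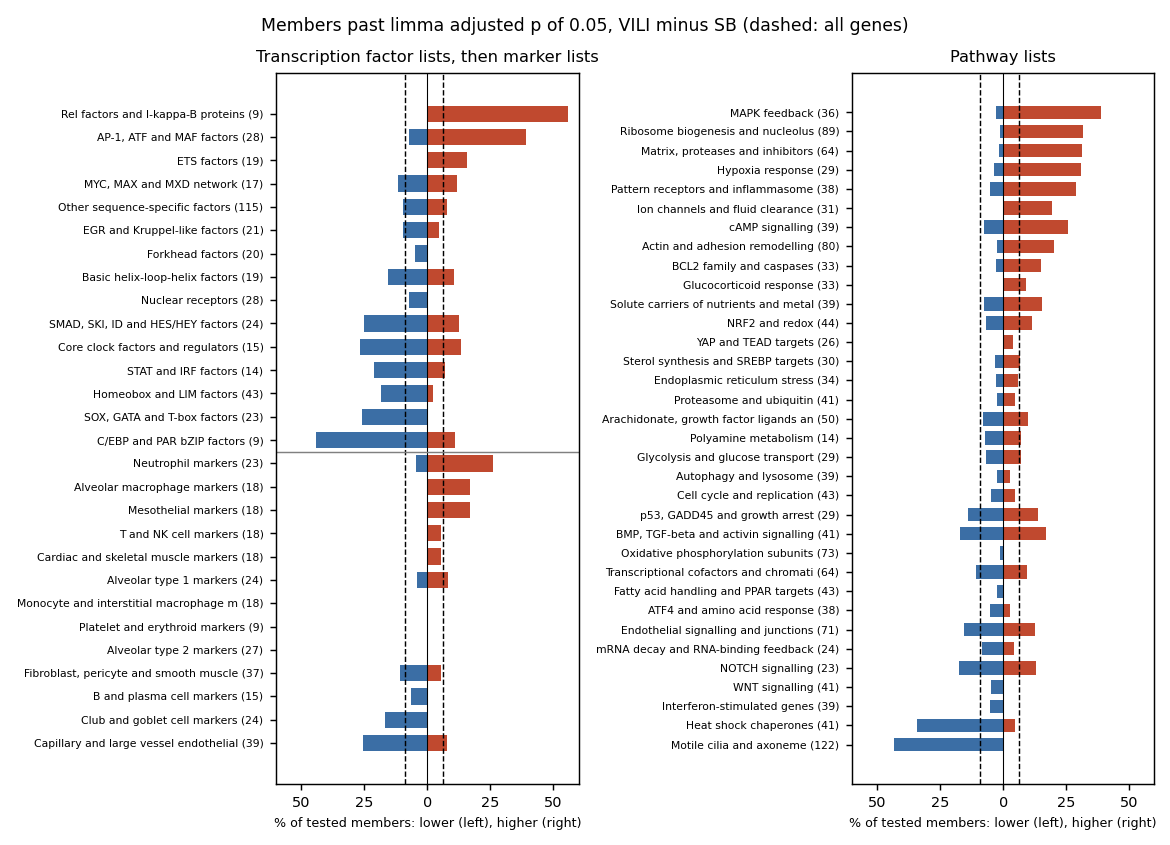
Share of tested members of each list that were lower (blue, left) or higher (red, right) after VILI at limma adjusted p under 0.05, in percent. Left panel: 15 transcription factor lists above the grey line and 13 marker lists below it; right panel: 34 pathway lists; numbers tested are in parentheses. The dashed lines mark all genes tested, 9.03% lower and 6.34% higher. The Rel and AP-1 lists and MAPK feedback reach farthest to the right, and the PAR bZIP list and motile cilia farthest to the left.

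The listed transcription factor genes were called more often than genes at large. Like all lists used here, theirs were chosen with earlier results of these data known, so the shares describe the lists only. Of 609 listed factors 397 were tested and 93 were called (23.4%, against 15.4% of all genes), 40 higher and 53 lower, and their median was -0.05, that of all genes. The count of lower factors was 31 without SB replicate 1 and 33 without VILI replicate 1. Among the 20 largest rises and the 20 largest falls with no overlap between groups, 15 and 16 were called in each of the 12 fits without 1 array, and these 31 are plotted. Of the other rises, Bcl6b (2.07), Maff (1.88), Nfkbid (1.49), Satb1 (0.97) and Tfcp2l1 (0.96) lost their calls in 3, 2, 4, 1 and 8 fits. Their largest adjusted p were 0.074, 0.0547, 0.0792, 0.051 and 0.114, that of Maff without VILI replicate 2, that of Tfcp2l1 without VILI replicate 3 and the other 3 without SB replicate 1. Of the other falls, Ciart (-1.43) and Hey1 (-1.12) reached 0.0775 and 0.096 without SB replicate 1, and Glis2 (-1.30) and Six5 (-1.21) reached 0.157 and 0.109 without VILI replicate 3.

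**Figure D2:**
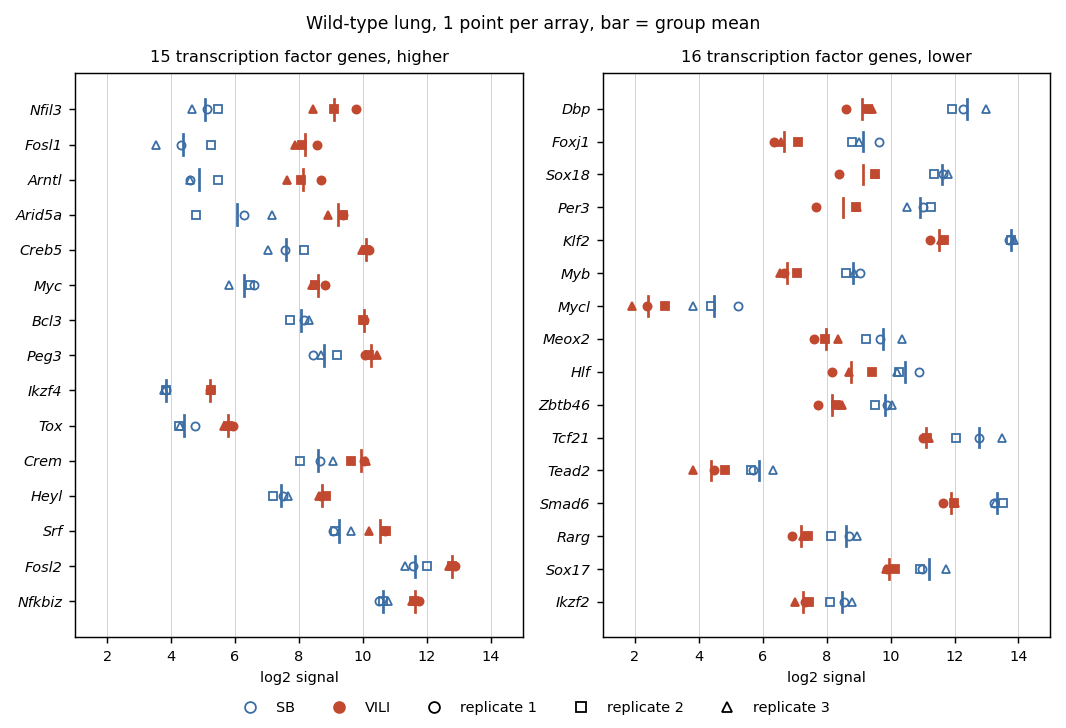
Log2 signal in each wild-type array of 15 transcription factor genes that were higher (left) and 16 that were lower (right) after VILI. Open blue symbols are SB, filled red symbols VILI, the symbol's shape is the replicate number, and bars are group means. In every gene plotted the 3 VILI points lie to one side of the 3 SB points; for Klf2 the SB points lie between 13.71 and 13.85 and the VILI points between 11.22 and 11.68.

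The AP-1, ATF and MAF list, bZIP factors that bind as dimers and are induced by MAPK and cAMP signals, had 11 of 28 tested members that rose and 2 that fell, with a median of 0.41. The count of rises was 7 without VILI replicate 2, and 7 rises and none of the falls passed in each of the 12 fits. Fosl1, a FOS-family partner of JUN, had log2 signals of 4.31, 5.25 and 3.52 in SB replicates 1 to 3 and of 8.57, 8.09 and 7.88 in VILI replicates 1 to 3. All 3 VILI arrays lay more than 2 log2 units above the highest SB array. The difference was 3.82 ± 0.74 (adjusted p = 0.0087). Creb5, which binds cAMP response elements, stood at 7.56, 8.17 and 7.02 under SB and at 10.19, 10.10 and 9.98 after VILI. Its rise of 2.51 ± 0.28 (adjusted p = 0.000707) had the same sign in 3 of 3 probe sets. Crem, a gene that yields both activators and the cAMP-induced repressor ICER, stood at 8.65, 8.03 and 9.05 under SB and at 10.04, 9.63 and 10.10 after VILI. The groups did not overlap, and the rise was 1.35 ± 0.28 (adjusted p = 0.0111). Fosl2 rose by 1.15 ± 0.25 (adjusted p = 0.0136), and the small MAF protein gene Mafk by 0.81 ± 0.12 (adjusted p = 0.00216). Atf4, the effector of the integrated stress response, rose by 0.63 ± 0.13 and Creb3l2, a membrane-bound factor of the secretory pathway, by 0.65 ± 0.09 (adjusted p = 0.0103 and 0.00166). Of the members that were not called, Jun and Jund had the highest signals. Jun stood at 14.54, 13.49 and 13.45 under SB and at 13.69, 13.56 and 13.53 after VILI, with SB replicate 1 alone above the rest, and Jund differed by 0.41 ± 0.35 (adjusted p = 0.556 and 0.465).

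Signalling by cAMP, the second messenger made by adenylyl cyclases and broken down by phosphodiesterases, was represented by 39 tested genes, of which 10 rose and 3 fell. Among receptors, Ptger4, which couples prostaglandin E2 to cAMP, stood at 8.96, 8.88 and 8.93 under SB and at 10.27, 10.10 and 10.04 after VILI, a rise of 1.21 ± 0.14 (adjusted p = 0.000945). Spread within each group was a fraction of that difference. Of the cyclases, Adcy6 fell by 0.79 ± 0.15 and Adcy9 by 0.64 ± 0.14 (adjusted p = 0.007 and 0.0127), and the phosphodiesterase gene Pde7b rose by 0.84 ± 0.10 (adjusted p = 0.000843). Akap12, a scaffold that holds protein kinase A at the membrane, stood at 12.13, 12.28 and 12.24 under SB and at 14.00, 14.01 and 13.92 after VILI. Both groups were even, and the rise was 1.76 ± 0.11 (adjusted p = 4.09e-05). Dio2, the deiodinase that makes active thyroid hormone and a known cAMP target, stood at 3.59, 4.12 and 3.52 under SB and at 8.33, 8.57 and 8.53 after VILI (4.73 ± 0.31, adjusted p = 4.09e-05). The regulatory subunit gene Prkar1a, among the highest signals of the list, was not called, at 0.16 ± 0.09 (adjusted p = 0.253).

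The cAMP response element TGACGTCA, the palindrome bound by CREB, CREM and ATF dimers, was searched on both strands in the 250 bases before each RefSeq start. It was present in 304 of 12712 promoters of all tested genes (2.39%), in 36 of 801 promoters of genes called higher (4.49%) and in 19 of 1202 promoters of genes called lower (1.58%). The 4 windows below, from RefSeq on GRCm38.p6, belong to genes that rose and are shown because they carry this element near the start, in capitals. Positions count back from -1, the base before the start, and give the element's first base. They are Dio2 (chr12:90739086-90739173, minus strand, position -95), Creb5 (chr6:53287218-53287302, plus strand, -45), Plk2 (chr13:110394942-110395029, plus strand, -62) and Cdkn2b (chr4:89311033-89311118, minus strand, -46). In Creb5 the element overlaps an E-box, CACGTG, whose first base is at -49.
Dio2: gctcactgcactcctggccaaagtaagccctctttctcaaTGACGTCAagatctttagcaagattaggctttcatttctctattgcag
Creb5: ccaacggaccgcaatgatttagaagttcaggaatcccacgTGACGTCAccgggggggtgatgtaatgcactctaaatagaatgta
Plk2: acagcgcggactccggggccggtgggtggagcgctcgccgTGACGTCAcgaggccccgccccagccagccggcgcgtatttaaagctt
Cdkn2b: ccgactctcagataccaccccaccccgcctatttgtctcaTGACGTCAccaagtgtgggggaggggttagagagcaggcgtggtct
Plk2, a stress-inducible polo-like kinase, stood at 8.76, 8.31 and 9.47 under SB and at 10.83, 10.47 and 10.22 after VILI (1.66 ± 0.35, adjusted p = 0.013). Cdkn2b, the inhibitor of cyclin D kinases p15, stood at 10.23, 10.62 and 10.78 and at 11.78, 11.58 and 11.48 (1.07 ± 0.18, adjusted p = 0.0046). The AP-1 letters TGANTCA were near the background in both sets, in 4.75% of all promoters, 4.99% of those of genes called higher and 3.66% of those of genes called lower. The cAMP element was not confined to genes that rose. It was present before Dusp1, whose difference was -0.05 ± 0.18 (adjusted p = 0.886), and before Hlf, which fell.

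Genes of the circadian clock and the PAR bZIP factors it drives were among the largest changes in the lung. The clock is a loop in which CLOCK and the product of Arntl activate the Per, Cry and Rev-erb genes and, through E-boxes, Dbp, Tef and Hlf, while NFIL3 binds the same D-box as those 3 factors and represses. Arntl stood at 4.59, 5.45 and 4.58 under SB and at 8.70, 8.07 and 7.61 after VILI. Nfil3 stood at 5.12, 5.46 and 4.64 and at 9.77, 9.11 and 8.44. Both rose beyond any overlap, by 3.26 ± 0.36 (adjusted p = 0.000707) and 4.03 ± 0.54 (adjusted p = 0.00157). Dbp ran the other way, at 12.25, 11.92 and 12.97 under SB and at 8.60, 9.29 and 9.40 after VILI (-3.28 ± 0.30, adjusted p = 0.000264). Per3 stood at 11.01, 11.26 and 10.51 and at 7.67, 8.93 and 8.96 (-2.41 ± 0.33, adjusted p = 0.0017), with VILI replicate 1 the lowest, as for Dbp. Hlf fell by 1.69 ± 0.30 and Tef by 1.02 ± 0.15 (adjusted p = 0.00571 and 0.00246). Per2 fell by 0.95 ± 0.20 and Nr1d2, which encodes the repressor REV-ERB beta, by 0.69 ± 0.11 (adjusted p = 0.0122 and 0.00317). Bhlhe40, an E-box repressor also induced by hypoxia, rose by 0.90 ± 0.19 (adjusted p = 0.0114). Per1 and Cry2 were not called, at 0.40 ± 0.35 and -0.08 ± 0.26 (adjusted p = 0.475 and 0.872). In SB replicate 3 both were lower than in the other SB arrays, Per1 at 10.56 against 11.53 and 11.70 and Cry2 at 10.63 against 11.39 and 11.78.

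**Figure D3:**
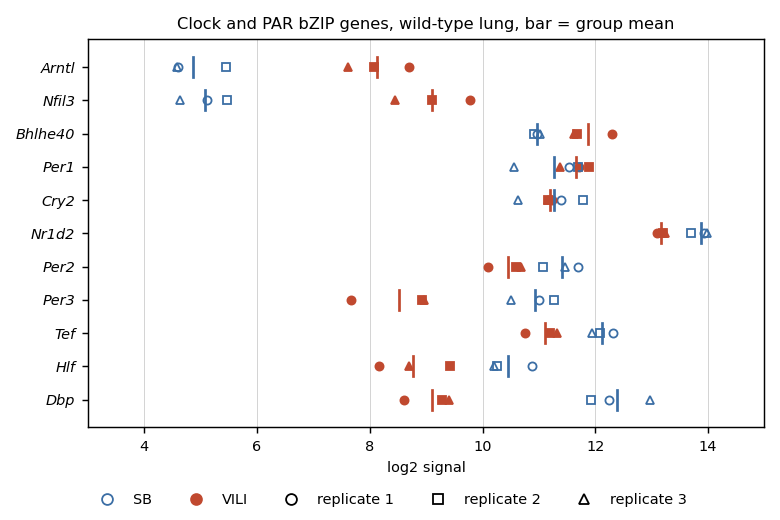
Log2 signal in each wild-type array of 11 clock and PAR bZIP genes; open blue symbols are SB, filled red symbols VILI, shapes give the replicate and bars the group means. Arntl, Nfil3 and Bhlhe40 lie to the right after VILI and Nr1d2, Per2, Per3, Tef, Hlf and Dbp to the left, while the groups overlap for Per1 and Cry2.

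In all, 2 of 15 tested clock genes rose and 4 fell, and of the 9 C/EBP and PAR bZIP genes 1 rose and 4 fell, Nfil3 against Dbp, Hlf, Tef and Ddit3 (-0.50 ± 0.10, adjusted p = 0.0113). The C/EBP genes themselves did not pass: Cebpb differed by 0.41 ± 0.22 and Cebpd by 0.56 ± 0.22 (adjusted p = 0.224 and 0.111). The sources used here do not give the hour at which each lung was taken, and its part in these values was not tested. The D-box TTANGTAA was present in 177 of the 12712 promoters (1.39%). It was in 13 of 801 promoters of genes called higher (1.62%) and in 14 of 1202 of genes called lower (1.16%). Both shares were near that of all promoters. Per3 had 2 copies, at positions -205 and -158, and was picked for carrying them. A part of D-box factors in its fall was not tested. Its window (GRCm38.p6 chr4:151044776-151044910, minus strand) is shown with both copies in capitals.
Per3: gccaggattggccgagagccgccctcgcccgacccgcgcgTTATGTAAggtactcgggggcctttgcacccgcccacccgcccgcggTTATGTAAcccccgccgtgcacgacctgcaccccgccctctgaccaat

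The Rel list holds the NF-kappa-B subunits and the I-kappa-B proteins that retain them in the cytoplasm or modulate them in the nucleus. Of 9 tested members 5 rose and none fell, and all 9 differences were positive with a median of 0.59. The count of rises was 3 without SB replicate 1 and 3 without VILI replicate 2. The nuclear co-regulator Bcl3 stood at 8.15, 7.71 and 8.32 under SB and at 10.05, 9.99 and 10.05 after VILI (1.97 ± 0.15, adjusted p = 0.000104). The VILI arrays lay within 0.1 of each other and clear of SB. Nfkbiz, another nuclear I-kappa-B protein, rose by 1.00 ± 0.14 (adjusted p = 0.00194) and the subunit Rela by 0.59 ± 0.09 (adjusted p = 0.00273), from 11.35, 11.41 and 11.49 to 12.01, 12.12 and 11.87. Nfkbia, the cytoplasmic inhibitor, was level at 14.62, 15.02 and 14.67 against 14.86, 14.91 and 14.84 (0.10 ± 0.13, adjusted p = 0.652). The kappa-B letters GGANTTTCC, on either strand, occurred in 144 of 12712 promoters (1.13%), in 18 of 801 of genes called higher (2.25%) and in 12 of 1202 of genes called lower (0.998%). They are shown in capitals in 3 genes that rose. These are Il6 (GRCm38.p6 chr5:30013031-30013113, plus strand, -43), Mapk6 (chr9:75410072-75410160, minus strand, -104) and Il18rap (chr1:40515303-40515361, plus strand, -19).
Il6: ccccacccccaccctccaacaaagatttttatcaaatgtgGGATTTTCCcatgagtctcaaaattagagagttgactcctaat
Mapk6: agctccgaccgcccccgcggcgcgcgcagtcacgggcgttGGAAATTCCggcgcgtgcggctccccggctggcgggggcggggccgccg
Il18rap: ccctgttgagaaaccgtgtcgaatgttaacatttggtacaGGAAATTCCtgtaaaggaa
Il6, the acute phase cytokine, stood at 2.08, 2.06 and 2.13 under SB, below the filter level of 3.056, so the size of its rise is not measured. After VILI it stood at 10.46, 9.05 and 7.44 (adjusted p = 0.0116), with VILI replicate 1 the highest. Mapk6, an atypical MAPK, stood at 10.04, 10.33 and 10.10 and at 11.48, 11.59 and 11.26 (1.29 ± 0.15, adjusted p = 0.000879). Il18rap, a chain of the interleukin 18 receptor, stood at 5.93, 7.22 and 7.07 and at 8.70, 8.44 and 8.93 (1.95 ± 0.34, adjusted p = 0.00558). Nfkbia carried 2 such matches and was not called.

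Feedback regulators of MAPK signalling include the dual-specificity phosphatases, Sprouty and SPRED proteins that are induced by the pathway and dampen it. The list, which also holds other signalling genes such as Rgs3, had 14 of 36 tested members that rose and 1 that fell (38.9% higher, median 0.47). Of the rises, 10 passed in each of the 12 fits. Spry4 stood at 10.06, 10.39 and 10.47 under SB and at 12.06, 11.93 and 12.48 after VILI (1.85 ± 0.19, adjusted p = 0.000493). Dusp16, a phosphatase of JNK and p38, stood at 10.95, 10.99 and 10.94 and at 12.01, 12.05 and 11.86 (1.01 ± 0.09, adjusted p = 0.000218). Spred2, which blocks RAF activation, stood at 10.59, 10.58 and 10.59 and at 11.32, 11.27 and 11.34 (0.73 ± 0.08, adjusted p = 0.000707). In all 3 the spread within a group was small beside the difference. Rgs3, a regulator of G-protein signalling, was the member that fell, by 1.11 ± 0.23 (adjusted p = 0.0117). Dusp1, the member with the highest signal, stood at 14.76, 14.35 and 14.29 and at 14.45, 14.36 and 14.46, with overlapping groups.

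MYC drives the transcription of genes for ribosome assembly. Myc stood at 6.59, 6.47 and 5.81 under SB and at 8.82, 8.49 and 8.42 after VILI, a rise of 2.29 ± 0.38 (adjusted p = 0.00454). Within its network the antagonist gene Mxi1 fell by 0.60 ± 0.10 (adjusted p = 0.00527), and Mycl fell from 5.21, 4.39 and 3.80 to 2.38, 2.93 and 1.90, below the filter level, so the size of that fall is not measured (adjusted p = 0.00821). Of 89 tested genes of ribosome biogenesis and the nucleolus, 28 rose and 1 fell, with a median of 0.29, and 13 differences were negative. The count of rises was 18 without SB replicate 1 and 18, 15 and 16 without VILI replicates 1, 2 and 3, and 12 passed in all 12 fits. The shifts were small and even. Tsr1, a factor of small subunit maturation, stood at 9.75, 9.77 and 9.66 and at 10.45, 10.56 and 10.57 (0.80 ± 0.09, adjusted p = 0.000724). Gnl3, the nucleolar GTPase nucleostemin, stood at 10.37, 10.40 and 10.27 and at 11.14, 11.10 and 11.11 (0.77 ± 0.09, adjusted p = 0.00107). Nmd3, the export adaptor of the large subunit, rose by 0.69 ± 0.09, and Rrs1 by 0.71 ± 0.10 (adjusted p = 0.00131 and 0.00215). Utp11, a processome component, fell by 0.51 ± 0.10 (adjusted p = 0.0103). Of the members that were not called, Npm1 and Ncl had the highest signals and differed by -0.06 ± 0.07 and 0.19 ± 0.16 (adjusted p = 0.606 and 0.468). Odc1, the MYC target that starts polyamine synthesis, rose from 12.61, 12.54 and 12.56 to 13.30, 13.27 and 13.50 (0.79 ± 0.10, adjusted p = 0.00128).

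Single factors known from endothelium were among the largest falls, though the Kruppel-like and ETS families as lists were not lower, with 1 rise and 2 falls of 21 EGR and Kruppel-like genes and 3 rises and no falls of 19 ETS genes. The ETS rises numbered 1 without VILI replicate 3. Klf2, induced by laminar shear, stood at 13.71, 13.78 and 13.85 under SB and at 11.22, 11.68 and 11.59 after VILI. It fell by 2.28 ± 0.15 (adjusted p = 4.09e-05), which left a gap of over 2 log2 units between the groups. Its relative Klf4 fell by 0.57 ± 0.11 (adjusted p = 0.0105), and Klf7 rose by 0.73 ± 0.10 (adjusted p = 0.00185). Sox18, a SOX F factor of vessels and lymphatics, stood at 11.63, 11.37 and 11.80 and at 8.39, 9.50 and 9.50 (-2.47 ± 0.29, adjusted p = 0.000896), and Sox17 fell by 1.25 ± 0.26 (adjusted p = 0.0122). Meox2, a homeobox factor of vascular cells, stood at 9.67, 9.24 and 10.35 and at 7.61, 7.93 and 8.34 (-1.80 ± 0.30, adjusted p = 0.00453). Of 23 SOX, GATA and T-box genes 6 fell (26.1%, against 9.03% of all genes) and none rose. The falls numbered 2 without SB replicate 1, VILI replicate 1 or VILI replicate 3. The forkhead Foxf1, also expressed in lung endothelium and mesenchyme, was level (-0.05 ± 0.14, adjusted p = 0.853), and so was the hypoxia factor gene Epas1 (-0.08 ± 0.07, adjusted p = 0.448).

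The marker list of capillary and large vessel endothelium moved in part with these factors. Of 39 tested markers 10 fell and 3 rose (25.6% and 7.69%, against 9.03% and 6.34% of all genes), with a median of -0.27. Sox17 and Sox18 are members of the list. The rises numbered 1 without SB replicate 1 or any VILI array. The median log2 signal of the 39 was 12.61, 12.65 and 12.71 under SB and 12.37, 12.43 and 12.22 after VILI. Gja4, the arterial connexin 37, fell by 1.15 ± 0.17, and Ramp2, the co-receptor for adrenomedullin, by 0.92 ± 0.12 (adjusted p = 0.0022 and 0.00128), while Cd93 rose by 0.47 ± 0.09 (adjusted p = 0.00661). The part of endothelial RNA content in the falls of Klf2 and Sox18 was not tested. Of 71 endothelial signalling and junction genes 9 rose and 11 fell (12.7% and 15.5%, against 6.34% and 9.03% of all genes). The rises numbered 5 without SB replicate 1, and the falls 7 without VILI replicate 2 or VILI replicate 3. Apold1, an early response gene of endothelium, stood at 4.54, 5.92 and 4.54 and at 10.70, 10.47 and 10.54 (5.57 ± 0.51, adjusted p = 0.000264). Ackr3, a scavenging receptor of CXCL12 and adrenomedullin, stood at 12.03, 11.96 and 12.00 and at 13.13, 13.04 and 13.18 (1.12 ± 0.10, adjusted p = 0.000234). The netrin receptor gene Unc5b rose by 1.35 ± 0.19 and Robo4, which stabilises vessels, by 0.55 ± 0.09 (adjusted p = 0.00192 and 0.00432). Tmem100, a BMP9 target, stood at 14.68, 14.63 and 14.59 and at 13.82, 13.87 and 14.00 (-0.73 ± 0.07, adjusted p = 0.000472). Sema3g fell by 0.81 ± 0.11 and Angpt1, a ligand of TIE2 made by perivascular cells, by 0.57 ± 0.11 (adjusted p = 0.00169 and 0.00824). Cav1 was not called, at -0.19 ± 0.08 (adjusted p = 0.136).

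Genes of BMP, TGF-beta and activin signalling split evenly, with 7 of 41 rising and 7 falling (17.1% each, against 6.34% and 9.03% of all genes). On the BMP side, the endothelial receptor Acvrl1 (ALK1) stood at 12.03, 12.01 and 12.19 under SB and at 11.52, 11.19 and 11.06 after VILI (-0.82 ± 0.16, adjusted p = 0.00894). Smad6, the inhibitory SMAD, stood at 13.22, 13.53 and 13.26 and at 11.65, 11.98 and 12.02 (-1.45 ± 0.18, adjusted p = 0.00127), and Id1, a BMP-induced inhibitor of bHLH factors, stood at 12.26, 12.50 and 11.66 and at 10.78, 11.31 and 11.11 (-1.07 ± 0.21, adjusted p = 0.0083). The signal transducer Smad1 rose by 0.84 ± 0.11 (adjusted p = 0.00158) in 3 of 3 probe sets. The ubiquitin ligase genes moved apart, Smurf2 by -0.72 ± 0.11 and Smurf1 by 0.50 ± 0.10 (adjusted p = 0.00326 and 0.00831). On the activin and TGF-beta side, the activin subunit gene Inhbb stood at 9.17, 9.43 and 9.46 and at 10.52, 11.15 and 11.32 (1.64 ± 0.19, adjusted p = 0.000843), and Fstl3, a secreted activin antagonist, stood at 9.15, 9.08 and 9.25 and at 10.17, 10.22 and 10.34 (1.08 ± 0.09, adjusted p = 0.000215). Tgfbr1 rose by 0.61 ± 0.12 (adjusted p = 0.00824), and Bmpr2 differed by -0.24 ± 0.07 without passing (adjusted p = 0.0528). Among NOTCH effectors Heyl rose by 1.28 ± 0.18 and the fringe gene Mfng fell by 0.86 ± 0.16 (adjusted p = 0.00175 and 0.00756), and the WNT receptor gene Fzd7 fell by 1.23 ± 0.12 (adjusted p = 0.000486).

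Several single factors of lung mesenchyme and development were also among the falls. Tcf21, a marker of lipofibroblasts and their precursors, stood at 12.75, 12.04 and 13.48 under SB and at 11.01, 11.13 and 11.21 after VILI (-1.64 ± 0.35, adjusted p = 0.0125). The SB arrays spread over more than 1 log2 unit and the VILI arrays over 0.2. Hoxa5, needed for lung development, stood at 11.58, 11.36 and 11.38 and at 10.23, 10.02 and 10.78 (-1.10 ± 0.20, adjusted p = 0.00626). Of 43 homeobox and LIM genes 8 fell (18.6%, against 9.03% of all genes) and 1 rose. The falls numbered 4 without SB replicate 1 and 5 without any 1 of the VILI arrays. The retinoic acid receptor gene Rarg fell by 1.41 ± 0.29 and the epithelial factor gene Grhl2 by 0.95 ± 0.17 (adjusted p = 0.011 and 0.00597). Of 37 markers of fibroblasts, pericytes and smooth muscle, Tcf21 among them, 4 fell and 2 rose. These shares, 10.8% and 5.41%, were near those of all genes, 9.03% and 6.34%. Their median signal was 10.66 to 10.96 under SB and 10.60 to 10.73 after VILI. The falls numbered 2 without SB replicate 1, SB replicate 3 or any VILI array, and the part of fibroblast RNA content was not tested.

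Further factors with large changes lie outside these groups. Arid5a, an RNA-binding protein that stabilises Il6 and other inflammatory transcripts, stood at 6.28, 4.78 and 7.15 and at 9.37, 9.37 and 8.91 (3.15 ± 0.50, adjusted p = 0.00356). Ikzf4, the Ikaros-family factor Eos, stood at 3.85, 3.84 and 3.79 and at 5.20, 5.26 and 5.21. Both groups were within 0.1, and the difference of 1.40 ± 0.09 had an adjusted p of 4.09e-05. Peg3 rose by 1.47 ± 0.25 (adjusted p = 0.00481). Zbtb46, a factor of dendritic cells and endothelium, stood at 9.90, 9.51 and 10.03 and at 7.73, 8.29 and 8.48 (-1.64 ± 0.22, adjusted p = 0.00144). Ikzf2 fell by 1.22 ± 0.20 (adjusted p = 0.00443), and the histone deacetylase gene Hdac11 stood at 6.83, 6.84 and 6.82 and at 5.10, 5.52 and 5.23 (-1.55 ± 0.13, adjusted p = 0.000215). Forkhead factors and nuclear receptors as families were quiet, with 1 of 20 (5%) and 2 of 28 (7.14%) called, all lower. Without SB replicate 3, 2 nuclear receptors rose and 3 fell, and 7 and 4 fell without knockout SB replicate 2 and knockout VILI replicate 3. In the STAT and IRF list Irf2 fell by 0.65 ± 0.13 (adjusted p = 0.0108), while Irf1 and Stat3 differed by -0.03 ± 0.21 and 0.48 ± 0.23 (adjusted p = 0.945 and 0.18).

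SRF reads the pool of free actin and drives cytoskeletal genes. Srf itself stood at 9.05, 9.12 and 9.62 under SB and at 10.69, 10.72 and 10.20 after VILI (1.28 ± 0.21, adjusted p = 0.00403). Of 80 tested genes of actin and adhesion remodelling 16 rose and 2 fell, with a median of 0.12. The rises numbered 9 without VILI replicate 1 and 10 without VILI replicate 2, and 9 passed in all 12 fits. Pdlim7, a stress fibre adaptor, stood at 9.85, 10.03 and 10.06 and at 11.70, 11.66 and 11.59, and its rise of 1.67 ± 0.08 had an adjusted p of 1.78e-05. Tubb6, a beta tubulin, stood at 8.61, 8.21 and 9.35 and at 10.91, 10.63 and 10.70 (2.02 ± 0.29, adjusted p = 0.00194). Svil, which encodes the membrane linker supervillin, fell by 0.34 ± 0.07 (adjusted p = 0.00998). The actins were level or nearly so, Actb at 0.07 ± 0.07 and Actg1 at 0.20 ± 0.07 (adjusted p = 0.528 and 0.0756). Of 26 targets of YAP and TEAD, the other stretch-sensitive pair, 1 was called (3.85%), and Ccn2, its best-known target, differed by 0.36 ± 0.16 (adjusted p = 0.16). The simple epithelial keratins rose together: Krt8 from 12.70, 12.74 and 11.93 to 13.81, 14.03 and 13.89, Krt18 by 1.35 ± 0.20 and Krt19 by 0.82 ± 0.14 (Krt8 1.45 ± 0.21, adjusted p = 0.00197, 0.00243 and 0.00551). They are the only 3 of 18 mesothelial markers that were called, and the median signal of that list was 9.31 to 9.78 under SB and 9.46 to 9.92 after VILI.

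Matrix genes, proteases and their inhibitors had 20 of 64 tested members that rose and 1 that fell, with a median of 0.24. The count of rises was 10 without SB replicate 1 and 10, 11 and 9 without VILI replicates 1, 2 and 3, and 9 passed in all 12 fits. Adamts9, an aggrecanase-type protease, stood at 9.05, 8.50 and 9.96 under SB and at 11.62, 11.43 and 11.57 after VILI (2.37 ± 0.29, adjusted p = 0.00102). Plaur, the urokinase receptor that focuses plasmin on the cell surface, stood at 9.57, 9.58 and 9.62 and at 11.42, 11.17 and 11.40 (1.74 ± 0.17, adjusted p = 0.000341). Every VILI value exceeded every SB value in both. Loxl1, which cross-links elastin, rose by 1.17 ± 0.11 and the collagen gene Col1a1 by 0.82 ± 0.16 (adjusted p = 0.000295 and 0.00767). Has1, a hyaluronan synthase, stood at 3.06, 2.71 and 3.33, about the filter level, and at 7.47, 7.70 and 7.66 after VILI (adjusted p = 0.00128). The abundant matrix genes Postn and Timp2 differed by -0.12 ± 0.13 and -0.09 ± 0.08 (adjusted p = 0.579 and 0.465). Tnfrsf12a, the receptor of the cytokine TWEAK, stood at 9.57, 9.31 and 9.24 and at 11.46, 11.47 and 11.29 (2.03 ± 0.21, adjusted p = 0.000505). Among growth factors Hbegf, an EGF receptor ligand, rose by 0.93 ± 0.20 and Fgf7, which acts on alveolar epithelium, fell by 0.80 ± 0.10 (adjusted p = 0.0128 and 0.00144).

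Hypoxia response genes had 9 of 29 that rose (31%, against 6.34% of all genes) and 1 that fell, and 6 of the rises passed in all 12 fits. Hk2, a hexokinase that commits glucose to glycolysis, stood at 10.09, 10.17 and 9.54 and at 11.72, 11.71 and 11.51 (1.71 ± 0.27, adjusted p = 0.00356). The glucose transporter gene Slc2a1 stood at 10.45, 10.43 and 10.28 and at 11.30, 11.26 and 11.33 (0.91 ± 0.16, adjusted p = 0.00558). The change did not extend over glycolysis, where 2 of 29 genes rose (4 without SB replicate 3) and 2 fell (none of them in all 12 fits), and Vegfa, the standard HIF target, was at -0.13 ± 0.11 (adjusted p = 0.45). Of 73 subunits of oxidative phosphorylation 1 was called (1.37%), with a median of -0.08. Stc1, a secreted glycoprotein of calcium and phosphate handling, rose by 1.69 ± 0.22, and the zinc and iron importer gene Slc39a14 and the phosphate transporter gene Slc20a1 by 1.63 ± 0.19 and 1.39 ± 0.15 (adjusted p = 0.00144, 0.000896 and 0.00058). Of 31 ion channel and fluid clearance genes 6 rose (19.4%, against 6.34% of all genes) and none fell. Kcne4, a potassium channel subunit, stood at 7.69, 8.05 and 7.25 and at 10.11, 10.00 and 9.74 (2.29 ± 0.31, adjusted p = 0.00158). Kcnk5 rose by 1.31 ± 0.17 and the sodium pump regulator Fxyd5 by 0.65 ± 0.10 (adjusted p = 0.00124 and 0.00382), and the pump subunit Atp1b1 was at 0.28 ± 0.28 (adjusted p = 0.528).

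Heat shock chaperones were lower after VILI, with 14 of 41 that fell and 2 that rose and a median of -0.31. The falls numbered 8 without SB replicate 1, 9 without SB replicate 3, 7 and 9 without VILI replicates 2 and 3 and 9 without knockout VILI replicate 2, and 7 passed in all 12 fits. Hspa1b, an inducible HSP70, stood at 14.66, 13.97 and 13.90 under SB and at 10.31, 9.89 and 10.44 after VILI (-3.96 ± 0.58, adjusted p = 0.00225). Hspa1a stood at 12.40, 10.20 and 10.68 and at 7.29, 7.30 and 7.31 (-3.80 ± 0.66, adjusted p = 0.00542). SB replicate 1 was the highest for both. Dnajb1, the HSP40 partner of HSP70, stood at 13.20, 11.83 and 12.68 and at 10.90, 10.62 and 10.80 (-1.80 ± 0.27, adjusted p = 0.00292). Hspa12b, an endothelial HSP70 relative, fell by 1.75 ± 0.24 and the mitochondrial chaperonin gene Hspe1 by 0.68 ± 0.10 (adjusted p = 0.00158 and 0.00236). Not every chaperone of high signal was lower: Hsp90aa1 stood between 14.56 and 14.68 in all 6 arrays, and Cryab differed by -0.02 ± 0.13 (adjusted p = 0.916). Dnajb5 ran opposite to the list, at 8.92, 8.57 and 8.67 and at 9.99, 9.98 and 9.91 (1.24 ± 0.11, adjusted p = 0.000241). The list of endoplasmic reticulum stress, which holds chaperones, sensors and degradation genes, was not part of the shift: 2 of 34 genes rose and 1 fell. Its chaperone genes Hspa5 and Hsp90b1 differed by 0.19 ± 0.08 and 0.02 ± 0.09 (adjusted p = 0.114 and 0.887).

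The promoters of 2 such genes are shown because they are near copies, whose transcripts a probe set may not separate. Over the 250 bases before the start, Hspa1a and Hspa1b differ at 3 positions, and both carry at -104 the inverted pair GAANNTTC, the core of the heat shock element bound by HSF1, in capitals. The pair may not be independent, yet both genes are counted in the chaperone falls above and both promoters in the chaperone shares below. Probe and transcript sequences were not compared. The letters were found in 619 of 12712 promoters (4.87%), in 11 of 49 promoters of tested chaperone genes (22.4%) and in 6 of 18 promoters of those that fell (33.3%). Windows are given for Hspa1a (GRCm38.p6 chr17:34972213-34972300, minus strand), Hspa1b (chr17:34959295-34959382, minus strand) and Hspe1 (chr1:55088024-55088111, plus strand, -84).
Hspa1a: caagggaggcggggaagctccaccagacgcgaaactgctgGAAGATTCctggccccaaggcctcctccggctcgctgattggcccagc
Hspa1b: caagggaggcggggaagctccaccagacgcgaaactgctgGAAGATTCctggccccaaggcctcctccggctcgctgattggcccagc
Hspe1: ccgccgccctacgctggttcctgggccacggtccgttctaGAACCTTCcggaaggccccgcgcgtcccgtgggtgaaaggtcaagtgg

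Motile cilia gave the longest list of falls. Of 155 listed genes of the axoneme, its assembly and transport 122 were tested, 53 fell and none rose (43.4% lower, against 9.03% of all genes), the median was -0.59, and 116 of the 122 differences were negative. The count was 27 without SB replicate 1, 35 without VILI replicate 2 and 26 without VILI replicate 3, and 25 falls passed in all 12 fits. Foxj1, the master factor of the programme, stood at 9.63, 8.78 and 9.02 under SB and at 6.36, 7.10 and 6.56 after VILI (-2.47 ± 0.43, adjusted p = 0.00529). Myb, which acts upstream in multiciliated cell differentiation and also in blood progenitors and is not on the list, stood at 9.03, 8.61 and 8.86 and at 6.65, 7.06 and 6.55 (-2.08 ± 0.31, adjusted p = 0.00253). For both, the nearest SB and VILI arrays were more than 1.5 log2 units apart. Among structural genes, Akap14, an axonemal anchor of protein kinase A, stood at 6.51, 6.06 and 6.72 and at 4.34, 3.85 and 3.91 (-2.40 ± 0.25, adjusted p = 0.000517). Tekt4, a filament protein of the doublet microtubules, stood at 6.51, 6.17 and 6.02 and at 4.42, 4.15 and 3.55 (-2.19 ± 0.23, adjusted p = 0.000505). Traf3ip1, a subunit of the intraflagellar transport train, fell by 1.05 ± 0.14 and Ccdc153 by 0.86 ± 0.12 (adjusted p = 0.00167 and 0.00182). The falls covered the regulator, transport and structural genes, and of the 122 tested members Foxj1 had the lowest difference. FOXJ1 and RFX factors act on ciliary promoters. An arm of the RFX site, GTTGCCATG on either strand, was present in 66 of 12712 promoters (0.519%) and in 6 of 113 promoters of tested cilia genes (5.31%). Among the cilia genes that fell it was in 2 of 48 promoters (4.17%), no more often than over the tested list. Dynll1 and Tuba1a, which all cells use, were not called, at -0.44 ± 0.20 and 0.23 ± 0.11 (adjusted p = 0.173 and 0.168). Of 24 markers of club and goblet cells, the other airway epithelial cells, 4 fell (16.7%, against 9.03% of all genes) and none rose. Their median difference was -0.19, and their median signal was 13.57, 13.73 and 13.10 under SB and 13.49, 13.08 and 12.51 after VILI. The falls numbered 2 without SB replicate 1. Of these Gsta3, a glutathione transferase, fell from 13.40, 13.32 and 12.92 to 12.49, 12.35 and 12.53 (-0.76 ± 0.14, adjusted p = 0.00723). The part of airway content per sample in the falls of cilia genes was not tested.

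**Figure D4:**
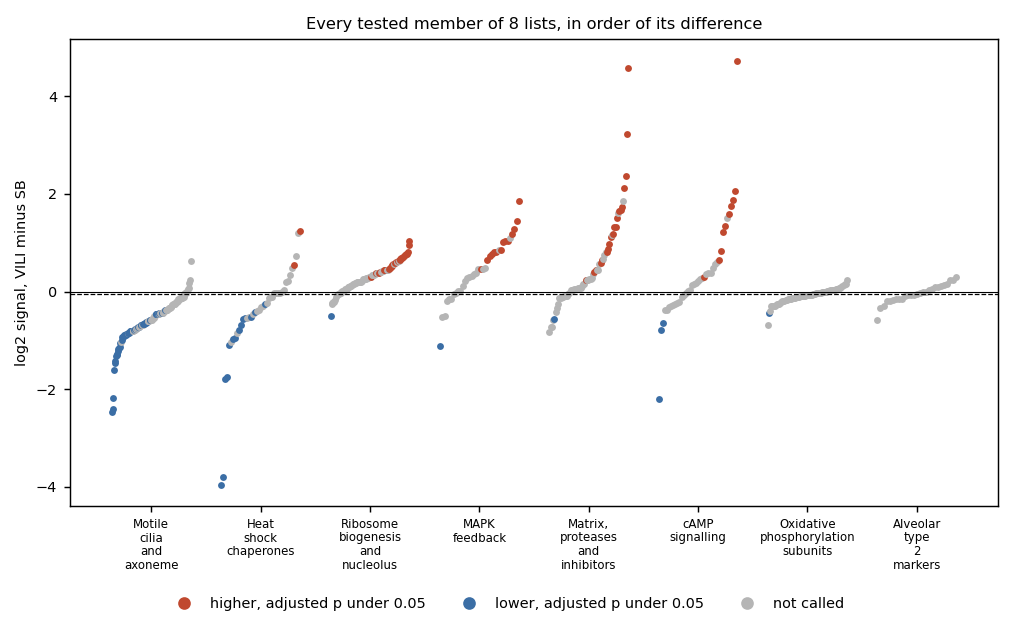
Log2 difference, VILI minus SB, of every tested member of 8 lists in wild-type lung, each list sorted from lowest to highest. Red and blue points passed limma at adjusted p under 0.05, grey points did not, and the dashed line is the median of all genes, -0.05. The members of motile cilia lie almost all below 0 (116 of 122) and those of ribosome biogenesis mostly above it, while oxidative phosphorylation and alveolar type 2 markers hug the line with 1 and 0 calls.

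Receptors and adaptors of innate immunity had 11 of 38 tested members that rose and 2 that fell, with a median of 0.30. The rises numbered 4 without SB replicate 1 and 5, 6 and 5 without VILI replicates 1, 2 and 3, and 4 passed in all 12 fits. Il1r2, the decoy receptor of interleukin 1, stood at 3.81, 5.84 and 4.20 and at 9.34, 8.91 and 10.46 (4.95 ± 0.83, adjusted p = 0.00472). Cd14, the co-receptor for endotoxin, stood at 9.62, 9.53 and 9.90 and at 10.74, 10.35 and 10.43 (0.82 ± 0.14, adjusted p = 0.00435), and the adaptor Myd88 at 9.77, 9.62 and 9.98 and at 10.43, 10.46 and 10.49 (0.67 ± 0.12, adjusted p = 0.00567). Nod1, a cytosolic sensor of bacterial peptides, fell by 0.86 ± 0.16 (adjusted p = 0.00764). Il1r2 is also on the neutrophil list, whose 23 markers had 6 rises and 1 fall and a median of 1.14, and of 1.72 without SB replicate 3. Their rises numbered 16 without SB replicate 3, 1 and 3 without SB replicates 1 and 2, and 2 and 1 without VILI replicates 1 and 3. The part of neutrophil content in the rises of innate receptors was not tested. Interferon-stimulated genes did not follow: 2 of 39 fell (5.13%, against 9.03% of all genes) and none rose. Of the 39 differences 32 were negative, against 6973 of 12309 over all genes. Relative to each gene's mean, the list's array medians were 0.05, -0.17 and 0.49 under SB and -0.08, -0.13 and -0.20 after VILI. The groups overlapped, with SB replicate 3 the highest. The falls numbered 8 without SB replicate 2 and 1 without SB replicate 1, SB replicate 3, VILI replicate 2 or VILI replicate 3. Herc6, an interferon-induced ligase gene, stood at 7.75, 7.37 and 8.46 and at 6.34, 5.69 and 6.33 (-1.74 ± 0.30, adjusted p = 0.00537).

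**Figure D5:**
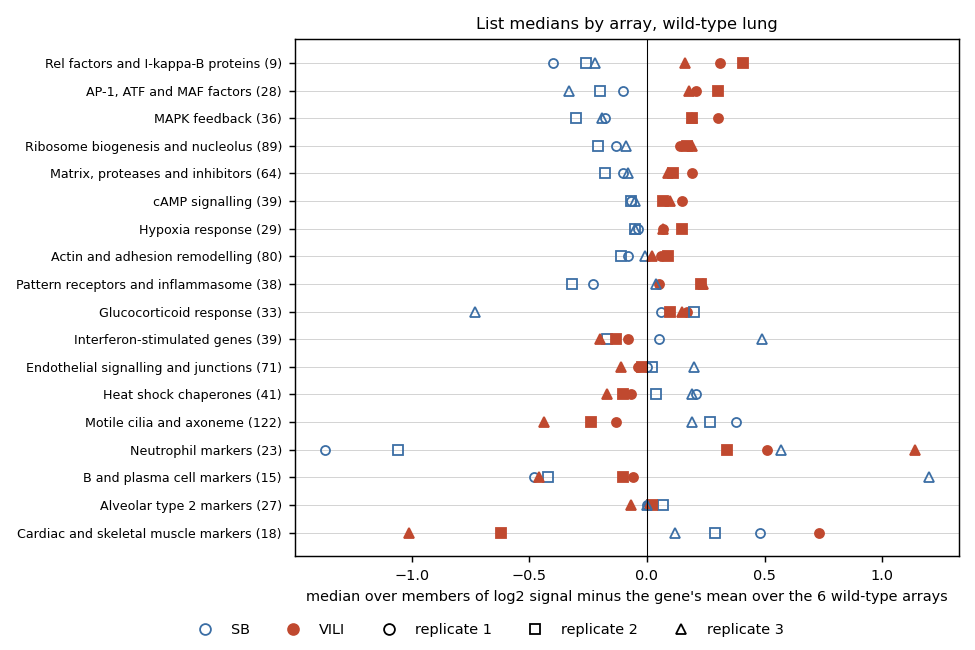
Median over each list's members of log2 signal minus the gene's mean over the 6 wild-type arrays, 1 point per array (open blue SB, filled red VILI, shape for replicate; number of members in parentheses). The Rel, AP-1, MAPK feedback, ribosome biogenesis, matrix, cAMP, heat shock and cilia lists separate the groups with no overlap. So do the hypoxia, actin, pattern receptor and endothelial signalling lists, the pattern receptors only narrowly (SB at most 0.04, VILI at least 0.05). SB replicate 3 (open triangles) lies at -0.73 for the glucocorticoid list, 0.49 for interferon-stimulated genes, 0.57 for neutrophil markers and 1.20 for B and plasma cell markers.

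Glucocorticoid response genes had 3 of 33 that rose and none that fell (9.09%, against 6.34% higher among all genes), and 1 rose without any 1 of the VILI arrays. Their array medians were 0.06, 0.20 and -0.73 in SB replicates 1 to 3 and 0.10 to 0.17 after VILI, so the list's median of 0.28 was 0.02 without SB replicate 3, 0.43 without SB replicate 1 and 0.47 without SB replicate 2. Cdkn1a, the cyclin-dependent kinase inhibitor p21, was also lowest in SB replicate 3, at 12.38, 13.36 and 9.78 under SB and at 13.71, 13.76 and 13.62 after VILI (1.86 ± 0.94, adjusted p = 0.206, and 0.83 without SB replicate 3). Nr3c1, the glucocorticoid receptor, differed by -0.39 ± 0.14 (adjusted p = 0.0783). Cell cycle genes were few among the calls, 2 of 43 higher and 2 lower, with Cdk6 at 0.39 ± 0.08 (adjusted p = 0.00858) beside Cdkn2b. Among the pathway lists not described above, few genes were called in fatty acid handling (1 of 43), autophagy and lysosome (2 of 39), WNT signalling (2 of 41), proteasome (3 of 41), ATF4 and amino acid response (3 of 38) and sterol synthesis (3 of 30), against 15.4% of all genes. Counts of 1 or 2 calls in a list often moved when 1 array was left out. In the sterol list Pmvk, the phosphomevalonate kinase of the pathway, still stood at 10.67, 10.50 and 9.72 and at 12.18, 12.24 and 12.09 (1.87 ± 0.28, adjusted p = 0.00278).

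Set beside the nmMLCK-/- lungs, the response was not shown to differ for any gene. The difference of responses was called for none of 12309 genes (0%, limma, lowest adjusted p = 0.244), and for 6 genes without SB replicate 3. At an unadjusted limma p under 0.05 there were 619 genes, about the count that this threshold gives where no gene differs. The median standard error of the difference of responses was 0.209, against 0.148 for the wild-type response. Values side by side were close for Fosl1 (3.82 and 3.09 in the knockout), Klf2 (-2.28 and -2.22), Bcl3 (1.97 and 2.23) and Pdlim7 (1.67 and 1.60). They were farther apart for Crem (1.35 and 0.14, adjusted p of the difference 0.897), Arntl (3.26 and 1.54, 0.867) and Hlf (-1.69 and -0.33, 0.867). At this number of arrays these gaps were not separable from the spread between samples.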

How the data were processed

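Affymetrix mouse expression arrays gave 1 value per probe set and sample. The deposited series table holds log2 signals that the authors had normalized; MAS5 and GCRMA are named in the submitters' processing notes, without versions, and the values ran from 0.7505 to 16.29. Genome builds used by the authors are not given in the sources used here. Of 45037 probe sets, 34945 had 1 gene symbol, 932 several and 9160 none. Probe sets with a mean over the 12 arrays at or above the 40th percentile (log2 3.056) were kept, and the one with the highest mean stood for its gene. Among 917 called genes with more than 1 probe set, 154 had probe sets of both signs.

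A model with 4 group means was fitted over the 12 arrays with limma 3.58.1 (lmFit, eBayes) in R 4.3.3, with Benjamini-Hochberg adjustment over 12309 genes at 0.05. The 62 lists comprised 15 of transcription factors, 34 of pathways and 13 of markers. The members and lists were chosen with earlier results of these data known. Named genes are the 15 largest changes per direction, the 20 largest transcription factor changes per direction, up to 4 called members per direction and up to 2 uncalled members of the highest signal per list, and the members of lists under 12 genes. Of 390 genes so named, those called in every fit without 1 array were preferred. Motifs were searched in the 250 bases before RefSeq starts (GRCm38.p6), with 40 bases shown on each side where available. Other scalings, filters, probe set choices, priors, a replicate block, the 6 wild-type arrays alone and each array left out were tried as alternatives. The number of arrays limits the precision.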

Additional observations from a re-analysis of the deposited data

How the results depend on the processing

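With the 6 wild-type arrays alone, 845 genes and 52 transcription factor genes were called, against 1892 and 93 in the fit over 12 arrays; fewer arrays then estimate the spread. Leaving out 1 array gave 933 to 2052 genes, 59 to 103 transcription factor genes and 0 to 6 genes whose response differed between genotypes. The 933 and 59 came without SB replicate 1, the 2052 and 103 without SB replicate 2 and the 6 without SB replicate 3. Without a filter on low signals, 1 gene differed between genotypes. The remaining scalings, filters, probe set choices and priors gave 1621 to 1932 genes. Of 263 named genes that were called, 138 were called under every alternative that tested them, and none reversed. With the replicate number as a block, 1433 genes and 78 transcription factor genes were called, and 0 differed between genotypes. Same-numbered SB and VILI arrays did not deviate together (correlations of -0.10, 0.02 and -0.03), so the numbers were not taken to pair the samples. Signals near the filter level limit the size of changes such as those of Il6 and Has1.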
